A study of Mus musculus with 14 samples.

Results

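The STAT and SOCS loci comprised the accessible regions of 9 genes: Stat3, Stat4, Stat5a, Stat5b, Stat6, Socs1, Socs2, Socs3 and Cish. A region was assigned to a gene when the gene had the protein-coding transcription start nearest to the region's midpoint, or when the midpoint lay within the gene body. This gave 75 of the 67254 regions in the table, of which 72 held enough reads to be tested, among 61366 tested regions. Stat4 had 15 regions, Socs1 had 12, Stat5b had 9, Stat3 and Socs2 had 8 each, Cish had 7, Stat6 and Socs3 had 6 each, and Stat5a had 4. The 3 regions too shallow to test belonged to Stat3, Stat4 and Socs2. Of the 75 regions, 42 lay in introns, 24 between genes, 5 in untranslated exons and 4 in coding exons. The assignment is by position, and 6 of the Socs1 regions lay within the neighbouring gene Clec16a and 3 of the Stat5a regions within introns of Stat3.

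STAT proteins are transcription factors that Janus kinases (JAKs) phosphorylate at cytokine receptors, after which they form dimers, enter the nucleus and bind DNA. The suppressor of cytokine signalling (SOCS) proteins, CISH among them, are induced by STATs and act back on the receptors and kinases. In regulatory T cells (Tregs) the best known of these axes is IL-2, through the paralogs STAT5A and STAT5B, which supports Foxp3 expression, while STAT3, STAT4 and STAT6 serve IL-6, IL-12 and IL-4, among other cytokines.

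Bulk ATAC-seq, which counts transposase cuts in open chromatin, was done on splenic CD4+Foxp3-YFP+ Tregs in 2 states: central Tregs (cTregs) and effector Tregs (eTregs), sorted on surface markers that include CD44 (CD44– for cTregs and CD44+ for eTregs in the labels). The CD45.2+ Tregs came from mixed bone marrow (BM) chimeras in sublethally irradiated Rag1-/- hosts, in which CD45.2+ BM was mixed with wild-type CD45.1+ BM. The donors of the Atg14-deficient groups were Foxp3Cre Atg14 fl/fl mice, and control donors carried the same Foxp3-driven Cre with 1 floxed Atg14 allele, so that all groups expressed Cre from the Foxp3 locus. Atg14 is a subunit of the Vps34 lipid kinase complex that starts autophagy. There were 3 control cTreg, 4 Atg14-deficient cTreg, 3 control eTreg and 4 Atg14-deficient eTreg libraries. The methods give as many chimeras of each genotype as there are libraries of each state, so that both states appear to come from the same mice. Neither they nor the labels say that a shared library number marks a shared mouse.

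Total counts per library ranged from 2242983 to 5548189, and values are given as CPM, counts scaled to that total. The share of counts in promoter regions was 52.3 to 57.7% in control cTregs, 51.1 to 54.9% in Atg14-deficient cTregs, 54.0 to 57.0% in control eTregs and 52.7 to 56.6% in Atg14-deficient eTregs. Promoter regions of the eTreg markers, found for 9 of 10 genes, summed to 291 to 339 CPM in control cTregs and 289 to 334 CPM in control eTregs, which overlapped. Among them Icos had means of 31.9 CPM in cTregs and 19.8 CPM in eTregs of control cells (edgeR adjusted p = 0.050, just above the threshold), and was lower in eTregs of Atg14-deficient cells, at 38.8 and 22.9 CPM (edgeR adjusted p = 0.0089). None of the other eTreg markers passed in either genotype. In control cells Klrg1 (log2 fold change 1.56), Cd44 (0.24), Prdm1 (0.08), Maf (0.07) and Cxcr3 (0.02) were higher in eTregs. Ccr2 (-0.77), Batf (-0.25) and Tigit (-0.09) were lower. Of the cTreg markers, the promoter regions of 3 genes were higher in control cTregs than in control eTregs: Ccr7 had means of 30.2 and 11.1 CPM, Klf2 139.6 and 86.2 CPM and Tcf7 7.02 and 1.69 CPM (edgeR adjusted p = 0.0031, 0.011 and 0.039). Lef1, with 49.3 and 42.5 CPM, and Bach2, with 52.9 and 42.8 CPM, did not pass (edgeR adjusted p = 0.504 and 0.420). Promoter regions of the Treg markers, found for 4 of 6 genes, summed to 125 to 132 and 93.7 to 97.4 CPM, and of these Ctla4 was lower in eTregs in both genotypes (edgeR adjusted p = 0.0497 and 0.0049). In contrast, 4 of 6 CD8 T and NK markers gave 24.5 to 55.4 CPM over all libraries. Of these 4, Cd8b1, a CD8 chain, was higher in cTregs in both genotypes, with means of 16.1 and 4.35 CPM in control cTregs and eTregs and 16.3 and 4.94 CPM in Atg14-deficient ones (edgeR adjusted p = 0.0047 and 0.0023). The other 3 did not pass. Nkg7 and Klrb1c were higher in eTregs, with log2 fold changes of 1.085 and 0.89 in control cells and 0.45 and 1.30 in Atg14-deficient ones. Eomes was lower in eTregs (-0.31 and -0.39). The part of such cells in the results was not tested. Of 6 B-cell and 6 myeloid markers, 1 of each had a promoter region, and their levels were at most 12.5 and 7.01 CPM in any library; Foxp3 and Cd4 had no region within 1000 bp of a start. The Atg14 promoter region differed between genotypes by a log2 fold change of 0.03 in eTregs and -0.38 in cTregs, neither past the threshold (edgeR, adjusted p = 0.987 and 1). It does not check the deletion, since the deleted exons were not given in the sources used here. In bulk samples, fewer cells with open chromatin and less opening per cell cannot be told apart.

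The classical STAT site consists of the triplets TTC and GAA set 3 or 4 bases apart. Both spacings, TTCNNNGAA and TTCNNNNGAA, were searched on both strands in the 300 bases at the centre of each region. They can overlap other motifs, and each is a match of letters and not a measured binding site. Of the 72 tested regions of the STAT and SOCS genes, 19 (26.4%) held a match, against 15.6% of the 61318 tested regions with complete sequence. Near transcription starts it was 4 of 16 (25.0%), against 9.87% of such regions. Cish led with 7 matches in 4 of 7 regions, and Stat4 had 6 matches in 6 of 14. In contrast, Stat3 and Stat5a had none. The AP-1 motif TGANTCA was found in 9 regions (12.5%, against 14.6% of all) and the RUNX motif TGTGGT in 20 (27.8%, against 29.1%). In the separate set of RefSeq promoters, 2 of 11 promoters, which cover all of these genes except Socs2, held a STAT match, those of Cish and Socs3, against 14.6% of 32841 promoters.

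The following sequences of GRCm38 all hold a STAT match, in promoter regions and in other regions named below. Regions without a match are not shown, although the comparisons below name such regions too. Examples are the Stat3 region 12946 bp upstream of a start and the Cish region 9602 bp from a start. The upstream Cish promoter region held 1 match and is not shown either. STAT matches are in capitals and the plus strand is given.
Cish promoter, chr9:107296517-107296816 (+): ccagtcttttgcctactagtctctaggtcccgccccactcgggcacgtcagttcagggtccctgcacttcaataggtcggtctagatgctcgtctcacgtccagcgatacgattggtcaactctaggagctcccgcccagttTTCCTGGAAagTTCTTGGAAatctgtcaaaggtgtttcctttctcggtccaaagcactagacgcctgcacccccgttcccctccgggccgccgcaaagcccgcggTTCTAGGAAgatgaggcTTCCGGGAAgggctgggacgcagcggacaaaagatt
Socs3 promoter, chr11:117969154-117969453 (+): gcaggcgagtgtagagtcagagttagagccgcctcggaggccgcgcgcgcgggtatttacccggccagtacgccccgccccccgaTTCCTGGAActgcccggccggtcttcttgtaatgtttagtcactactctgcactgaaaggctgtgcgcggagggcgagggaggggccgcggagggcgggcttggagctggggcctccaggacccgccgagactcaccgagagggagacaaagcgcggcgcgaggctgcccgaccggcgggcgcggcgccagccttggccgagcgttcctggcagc
Socs2 promoter, chr10:95416821-95417120 (+): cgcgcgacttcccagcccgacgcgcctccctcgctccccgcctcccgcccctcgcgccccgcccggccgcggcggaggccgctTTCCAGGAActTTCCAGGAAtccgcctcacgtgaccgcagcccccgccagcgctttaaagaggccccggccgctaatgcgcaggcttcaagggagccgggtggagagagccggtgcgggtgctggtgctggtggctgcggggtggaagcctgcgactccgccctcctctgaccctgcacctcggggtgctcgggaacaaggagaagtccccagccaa
Stat4 intron 32492 bp from a start, chr1:52040586-52040885 (+): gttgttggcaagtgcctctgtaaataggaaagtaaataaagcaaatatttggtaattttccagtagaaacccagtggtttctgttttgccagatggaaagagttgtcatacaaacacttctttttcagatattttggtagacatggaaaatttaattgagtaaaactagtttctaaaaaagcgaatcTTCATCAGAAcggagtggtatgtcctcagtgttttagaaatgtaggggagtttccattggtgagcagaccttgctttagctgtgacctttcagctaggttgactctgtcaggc
Stat4 intron near the 3′ end, chr1:52100566-52100865 (+): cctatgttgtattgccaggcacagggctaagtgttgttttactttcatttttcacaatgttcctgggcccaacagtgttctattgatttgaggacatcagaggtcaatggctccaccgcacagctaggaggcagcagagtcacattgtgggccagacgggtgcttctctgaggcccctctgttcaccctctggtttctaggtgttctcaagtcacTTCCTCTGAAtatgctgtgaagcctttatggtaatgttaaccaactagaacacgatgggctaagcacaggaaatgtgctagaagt
Cish downstream region, chr9:107313009-107313308 (+): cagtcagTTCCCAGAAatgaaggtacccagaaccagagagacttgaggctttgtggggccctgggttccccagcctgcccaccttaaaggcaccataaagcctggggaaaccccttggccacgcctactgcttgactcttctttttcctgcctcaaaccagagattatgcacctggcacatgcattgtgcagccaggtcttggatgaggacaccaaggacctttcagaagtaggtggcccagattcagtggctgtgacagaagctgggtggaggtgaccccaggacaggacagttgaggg
The Cish promoter held 4 matches, which read TTCCTGGAA, TTCTTGGAA, TTCTAGGAA and TTCCGGGAA. The Socs2 promoter held the same 9 letters, TTCCAGGAA, at 95416904 and again at 95416915 of chromosome 10. The match of the Socs3 promoter read TTCCTGGAA, as did the first of Cish. Each of the 2 Stat4 introns had a match of the longer spacing.

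Promoter levels were compared per kilobase of region, as CPM per kb over the 14 libraries. Socs1, which encodes an inhibitor of JAK kinases, stood highest at 128 ± 16.2 (SD), above Stat5a in 13 of 14 libraries. Stat5a (85.2 ± 13.96), Stat3 (82.6 ± 13.3) and Stat6 (73.9 ± 17.1) followed, and neighbours in this order changed places, since Stat5a exceeded Stat3 in 9 libraries and Stat3 exceeded Stat6 in 10. Socs3 came next at 61.3 ± 17.4, and Stat6 exceeded it in 9 of 14 libraries. Stat4 (41.4 ± 7.52) and Stat5b (39.3 ± 7.03) were not separated, with Stat4 the higher in 7 of 14 libraries. Cish (33.0 ± 8.12) and Socs2 (25.5 ± 5.65) were lowest. The order holds for these called regions only, because it depends on how wide each region was drawn and on which promoter region was taken. For each gene this was the promoter region of highest mean CPM, which for Stat5b is at a start within the gene. Among the promoter regions not taken, that at the 5′ end of Stat5b had 25.1 CPM per kb. One of Socs2 had 32.5 and one of Cish 36.1 CPM per kb. No 30-base stretch was shared between regions of different genes in 2455 pairs, so reads of the paralogs Stat5a and Stat5b fell on distinct sequence here.

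The first comparison asked how accessibility of these loci differed between eTregs and cTregs with Atg14 intact. Without a block for the mouse, 1 of 72 regions was higher in control eTregs, where 2.01% of all tested regions were, and 0 were lower, where 3.29% of all were. A call required 0.05 for the adjusted p and more than 0.5 for the size of the log2 fold change, in an edgeR fit across all regions; at an unadjusted p below 0.05 there were 3 higher and 9 lower, where 7.76% and 10.4% of all were. DESeq2 called 1 higher and 1 lower, against 2.98% and 3.84% of all. The groups did not overlap in 3 regions with higher eTreg values and in 13 with lower, against 12.2% and 13.9% of all tested regions. The median log2 fold change of the 72 was -0.01, as it was over all tested regions, and the median size was 0.33 against 0.41. For 32 of the 72 regions the 95% interval lay within 2-fold, and for the rest it reached past 2-fold.

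With the library number within a genotype as a block for the mouse, 2 regions were higher and 4 lower in control eTregs, against 4.67% and 5.7% of all tested regions. Apart from the Stat4 region called without the block, they were named after their values were seen. At Stat4, an intron at chr1:52034894-52035691 was higher (log2 fold change 1.05 ± 0.33, edgeR adjusted p = 0.029) and one at chr1:52022220-52022471 lower (-2.47 ± 0.64, edgeR adjusted p = 0.0079). At Socs2 a promoter region was lower (-0.95 ± 0.33, edgeR adjusted p = 0.049). At Socs1 2 regions within Clec16a were lower, 62164 bp (-1.58 ± 0.44) and 90716 bp (-2.24 ± 0.71) from the Socs1 start (edgeR adjusted p = 0.014 and 0.032).

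Stat4, the IL-12-responsive STAT of Th1 cells, held the region that was called without the block. It lies in an intron at chr1:52040430-52041040, 32492 bp downstream of a start, and is the first of the 2 Stat4 sequences above. Control cTregs had 3.42, 3.83 and 2.68 CPM and control eTregs 6.51, 12.1 and 10.1 CPM. Every control eTreg library was above every control cTreg library, with a log2 fold change of 1.503 ± 0.41 (SE, edgeR adjusted p = 0.027). The same region had 7.56, 4.67, 2.63 and 3.21 CPM in Atg14-deficient cTregs and 16.8, 13.4, 9.0 and 13.4 CPM in Atg14-deficient eTregs. Here too no value overlapped, and the log2 fold change was 1.58 ± 0.35 (edgeR adjusted p = 0.0048). The region was shallow, with 6 to 56 counts per library. The control call was lost when control cTreg replicate 1 or 3, or control eTreg replicate 2 or 3, was left out (edgeR adjusted p = 0.106, 0.093, 0.114 and 0.069), whereas the call in Atg14-deficient cells held without any 1 library. 

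**Figure D1:**
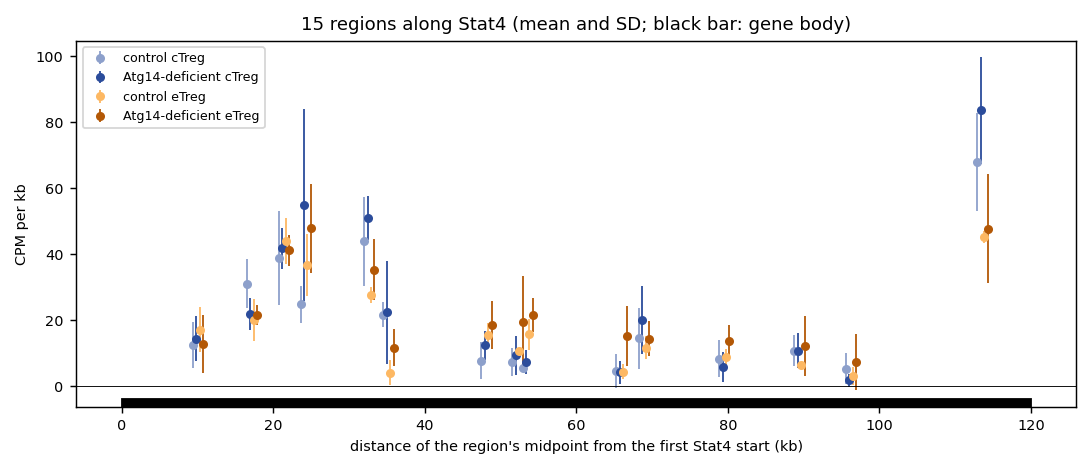
Accessibility along Stat4. Each point is the mean and each bar the SD of CPM per kb of a region in 1 of the 4 groups (colours), against the distance of its midpoint from the first Stat4 start in kb. The region near the 3′ end is highest in cTregs, and the region 32492 bp from the later start is highest in eTregs.

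Within Stat4 the changes went both ways. A region near the 3′ end of the gene, chr1:52100488-52100942, which is counted by the gene body rule, was the highest Stat4 region at 61.7 CPM per kb. It measured 35.2, 34.5 and 23.2 CPM in control cTregs and 21.5, 19.9 and 20.2 CPM in control eTregs. These control values did not overlap, but the log2 fold change of -0.61 ± 0.25 did not pass the adjusted threshold (edgeR adjusted p = 0.155). In Atg14-deficient cells the values were 33.6, 37.0, 48.6 and 32.8 CPM in cTregs and 28.2, 10.9, 24.4 and 23.4 CPM in eTregs. There the region fell, by a log2 fold change of -0.79 ± 0.22 (edgeR adjusted p = 0.018). That call was lost without Atg14-deficient cTreg replicate 3 (edgeR adjusted p = 0.104), and the state difference in Atg14-deficient cells minus that in control cells was -0.18 ± 0.33 (edgeR adjusted p = 1). An intronic region 14102 bp from a start, chr1:52022220-52022471, had 4.40, 5.74 and 6.24 CPM in control cTregs and 1.30, 0 and 1.80 CPM in control eTregs. Its log2 fold change of -2.29 ± 0.70 just missed the threshold (edgeR adjusted p = 0.053). By contrast, the Stat4 promoter region at chr1:52008403-52008781 changed little, at 14.7 ± 5.40 CPM (SD, n = 3) in control cTregs and 16.6 ± 2.67 CPM (n = 3) in control eTregs, with a 95% interval of the log2 fold change from -0.38 to 0.74.

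In Atg14-deficient cells, 1 of 72 regions was higher in eTregs, where 4.41% of all tested regions were, and 2 were lower, where 5.4% of all were. DESeq2 also called 1 higher and 2 lower, against 5.38% and 6.33% of all. The groups did not overlap in 4 regions with higher eTreg values and in 7 with lower, against 7.13% and 8.38% of all tested regions. Beside the 2 Stat4 regions, the third was a Stat3 region 12946 bp upstream of a start, at chr11:100952322-100952650. (This one and the Stat4 region near the 3′ end were named after their values in this comparison were seen.) It measured 1.68, 7.40, 5.26 and 3.21 CPM in Atg14-deficient cTregs, and 0, 0, 1.59 and 0 CPM in Atg14-deficient eTregs. All eTreg values lay below all cTreg values, and the log2 fold change was -3.23 ± 0.81 (edgeR adjusted p = 0.012). The 3 eTreg libraries other than replicate 3 were at 0 counts. Without replicate 3 the fitted value was -6.93, which depends on the prior count and is no bound. The corresponding control values were 2.93, 2.87 and 4.46 CPM in cTregs and 1.95, 1.05 and 1.08 CPM in eTregs, which did not overlap either but did not pass the test (edgeR adjusted p = 0.378).

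With the mouse block there were in Atg14-deficient cells 2 higher and 5 lower regions, against 7.63% and 7.84% of all tested regions. Besides the 3 regions above, these were 2 Stat4 introns and 2 Socs1 regions, named after their values were seen. The Stat4 intron at chr1:52066303-52067045 was higher (log2 fold change 1.24 ± 0.38, edgeR adjusted p = 0.020) and that at chr1:52019549-52020116 lower (-0.53 ± 0.19, edgeR adjusted p = 0.049). Both Socs1 regions were lower, and the region 15636 bp from the Socs1 start, chr16:10769759-10770042, had a log2 fold change of -0.70 ± 0.23 (edgeR adjusted p = 0.026). With the promoter share of each library as a covariate instead, 9 regions were higher and 3 lower in Atg14-deficient eTregs, against 9.85% and 7.81% of all tested regions. In control eTregs 3 were then higher and 4 lower, against 5.61% and 5.39%.

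**Figure D2:**
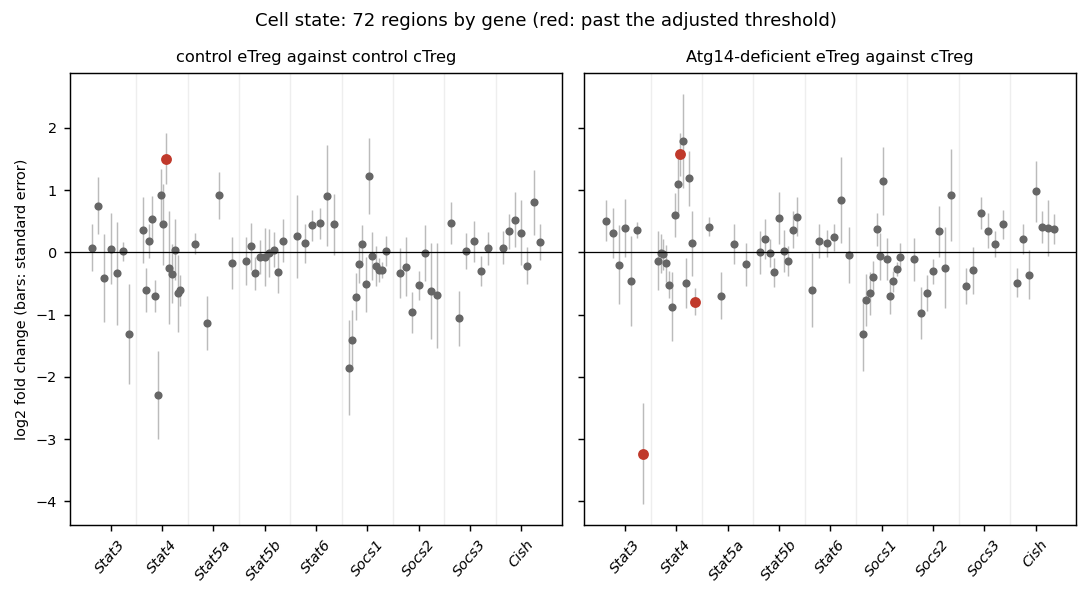
Log2 fold change of eTregs against cTregs for the 72 tested regions, grouped by gene, in control cells (left) and Atg14-deficient cells (right). Bars are the standard error, and red points pass the adjusted threshold: 1 on the left and 3 on the right, of which 2 on the right lie below 0.

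At the inhibitors Socs1 and Socs2, 3 of 12 and 0 of 7 tested regions had positive values (higher in eTregs) in the control comparison, and 2 of 12 and 2 of 7 in the Atg14-deficient one. Of all tested regions, 49.2% and 51.7% had positive values in these comparisons. The Socs1 promoter region, chr16:10784978-10785747, had 105, 98.4 and 106 CPM in control cTregs and 80.7, 85.3 and 88.1 CPM in control eTregs. In Atg14-deficient cells it had 110, 108, 119 and 110 CPM in cTregs and 90.8, 93.7, 78.9 and 107 CPM in eTregs. The groups were apart in both genotypes, yet the differences were small (log2 fold changes of -0.28 ± 0.12 and -0.27 ± 0.11) and did not pass the threshold (edgeR adjusted p = 0.194 and 0.105). Socs2 is a negative regulator of growth hormone signalling. The promoter region nearest to a start, chr10:95416481-95417460, which holds the 2 STAT matches, had 22.5, 26.8 and 35.7 CPM in control cTregs and 22.1, 17.3 and 18.9 CPM in control eTregs. The eTreg values were all the lower, but by a small margin, and the log2 fold change was -0.53 ± 0.23 (edgeR adjusted p = 0.186). A second promoter region of Socs2, chr10:95415538-95415856, is the one called with the mouse block. It had 14.2, 12.5 and 9.81 CPM in control cTregs and 4.55, 7.61 and 6.49 CPM in control eTregs, without overlap. Without the block its log2 fold change was -0.96 ± 0.33 (edgeR adjusted p = 0.086). In Atg14-deficient cells it had 13.0, 17.9, 13.9 and 10.3 CPM in cTregs and 5.69, 8.37, 11.7 and 8.99 CPM in eTregs, which overlapped (-0.66 ± 0.29, edgeR adjusted p = 0.137).

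Because single regions were shallow, the counts of all regions nearest to each gene were also summed, an alternative chosen after the values were seen, and the same edgeR fit was run on 15370 genes. None of the 9 genes passed both thresholds in either state comparison, where 5.76% of all genes did in control and 11.8% in Atg14-deficient cells. Socs2 came nearest. Its sum was 64.0, 80.4 and 67.3 CPM in control cTregs and 51.1, 50.1 and 49.4 CPM in control eTregs, without overlap. The log2 fold change was -0.49 ± 0.13 (edgeR adjusted p = 0.024), just short of the 0.5 required, and it was -0.55 with an adjusted p of 0.011 after TMM normalization. Leaving out a library gave -0.57 to -0.39, with an adjusted p above 0.05 without control cTreg replicate 2 (0.106) or any 1 of the control eTreg replicates (0.064 to 0.070). Both thresholds were passed without control cTreg replicate 1 (-0.57, edgeR adjusted p = 0.039) or 3 (-0.52, edgeR adjusted p = 0.046). In Atg14-deficient cells the Socs2 sum was 72.2, 80.6, 68.1 and 82.9 CPM in cTregs and 56.6, 61.5, 64.3 and 66.3 CPM in eTregs, again without overlap, with a log2 fold change of -0.28 ± 0.12 (edgeR adjusted p = 0.086, and 0.025 after TMM normalization).

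The Socs1 sum was 266, 268 and 264 CPM in control cTregs and 216, 227 and 228 CPM in control eTregs (log2 fold change -0.25 ± 0.10, edgeR adjusted p = 0.130). In Atg14-deficient cells it was 286, 260, 321 and 257 CPM in cTregs and 231, 210, 245 and 222 CPM in eTregs. The log2 fold change was -0.31 ± 0.09, with an adjusted p of 0.016 in edgeR but a size under 0.5, and the adjusted p rose to 0.091 without Atg14-deficient cTreg replicate 3. Thus, the sums of 2 of the 9 genes were lower in eTregs without overlap in both genotypes, as were those of 4.22% of all genes. With the mouse block none of the 9 sums passed both thresholds either (10.3% of all genes did in control and 15.7% in Atg14-deficient cells), and the adjusted p of Socs1 in control cells was 0.015 in edgeR, at a log2 fold change of -0.25 ± 0.07. The 6 Socs1 regions within Clec16a are part of this sum.

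Stat6 is the STAT of IL-4 signalling. In the control comparison all 6 of its tested regions had positive values, as did 49.2% of all tested regions, and none passed the threshold. The sum over the 4 regions nearest to its start was 51.3, 65.8 and 47.3 CPM in cTregs and 67.7, 85.6 and 61.5 CPM in eTregs. The groups overlapped, and the log2 fold change was 0.37 ± 0.15 (edgeR adjusted p = 0.142). Each same-numbered pair was higher in eTregs, and with the mouse block the value was 0.39 ± 0.13 with an adjusted p of 0.026 in edgeR, at a size under 0.5. The Stat6 promoter region, chr10:127642792-127643159, had 22.2 ± 7.16 CPM (SD, n = 3) in control cTregs and 30.8 ± 8.91 CPM (n = 3) in control eTregs (log2 fold change 0.43, edgeR adjusted p = 0.330). With the promoter share as a covariate it passed, at 0.67 (edgeR adjusted p = 0.028), and with the mouse block it did not, at 0.48 (edgeR adjusted p = 0.095). Without covariate or block, leaving out 1 library gave values between 0.21 and 0.64.

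Stat3 and Stat5a, which serve IL-6 and IL-2 among other cytokines, had state differences of 0.01 ± 0.15 and 0.10 ± 0.14 in control cells, and Stat5b had -0.06 ± 0.12. Stat4, whose regions moved both ways, had 0.02 ± 0.19. The 95% intervals of the first 3, from -0.30 to 0.32, from -0.19 to 0.38 and from -0.31 to 0.19, were all narrower than 2-fold in either direction. The Stat5a sum includes its regions within introns of Stat3, which had values of -1.13, 0.92 and -0.17 in control cells. In Atg14-deficient cells the promoters of Stat3 and Stat5a were higher in all eTreg libraries than in any cTreg library. The Stat3 promoter region, chr11:100939238-100940282, measured 78.5, 71.6, 71.0 and 85.5 CPM in cTregs and 88.1, 106, 87.9 and 111 CPM in eTregs (log2 fold change 0.36 ± 0.13, edgeR adjusted p = 0.079). The summed Stat3 locus had 0.28 (edgeR adjusted p = 0.131, and 0.026 with the mouse block). The Stat5a promoter region, chr11:100860176-100860696, measured 36.1, 39.7, 39.4 and 41.1 CPM in cTregs and 45.8, 46.4, 58.8 and 57.0 CPM in eTregs (log2 fold change 0.41 ± 0.15, edgeR adjusted p = 0.067). Neither promoter passed the threshold.

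Socs3, a STAT3-induced inhibitor of the IL-6 receptor, and Cish, a STAT5-induced inhibitor of IL-2 signalling, had summed state differences of -0.06 ± 0.15 and 0.20 ± 0.23 in control cells. The Cish values were spread widely, from 55.7 to 117 CPM in control cTregs and from 73.4 to 139 CPM in control eTregs. Yet each same-numbered pair had the higher Cish sum in eTregs, in both genotypes. With the mouse block the Cish value was 0.24 ± 0.10 in control and 0.18 ± 0.09 in Atg14-deficient cells. Neither passed (edgeR adjusted p = 0.095 and 0.122). The Cish promoter region with 4 STAT matches, chr9:107296438-107296894, had 15.6, 16.8 and 10.3 CPM in control cTregs and 19.5, 20.2 and 15.5 CPM in control eTregs. These overlapped, and the 95% interval of the log2 fold change was -0.23 to 0.91. This region was chosen for its sequence and not by the rule for named regions.

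**Figure D3:**
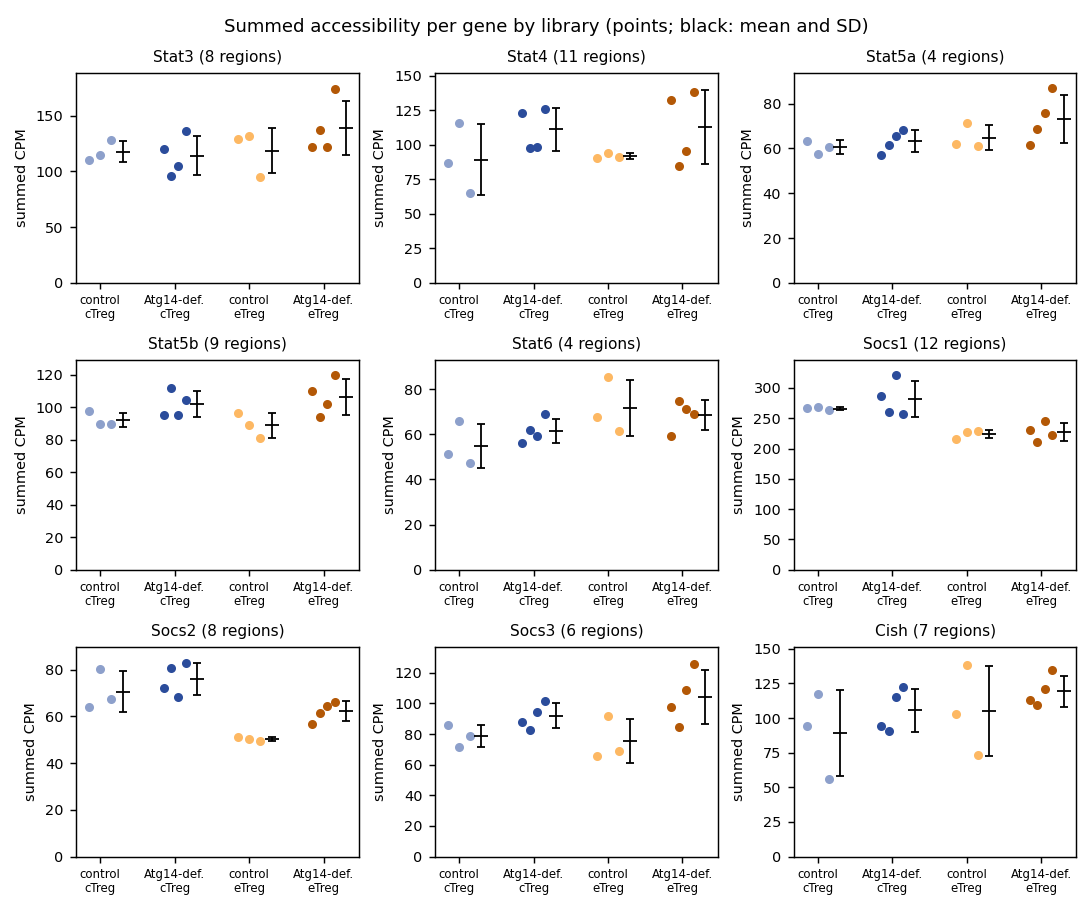
Summed CPM of the regions nearest to each of the 9 genes in every library (points), by group, with the mean and SD beside them in black. Socs1 and Socs2 are higher in all cTreg than in all eTreg libraries of the same genotype, and the other 7 genes overlap between states.

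The wider JAK-STAT pathway was covered by a list of 46 further genes (among them kinases, receptors, inhibitors and targets), with 420 regions, of which 388 were tested. In control cells 4 were higher and 29 lower in eTregs (1.03% and 7.47%), against 2.01% and 3.29% of all tested regions, and the median log2 fold change was -0.24. Il7r, the IL-7 receptor chain that supports resting T cells, had 3 lower regions, of which the one at chr15:9533295-9533793, upstream of its start, fell from 34.2 ± 12.0 CPM (SD, n = 3) to 14.9 ± 2.38 CPM (n = 3), with a log2 fold change of -1.23 ± 0.24 (edgeR adjusted p = 0.0030). Ifngr1 and the kinase Jak1 had 3 lower regions each, and Ptprc had 4 lower and 1 higher. Il2rb, the β chain of the IL-2 receptor through which STAT5 is activated, was higher at its promoter, at 25.6 ± 3.24 CPM in control cTregs and 41.8 ± 4.07 CPM in control eTregs (n = 3 each, log2 fold change 0.69 ± 0.20, edgeR adjusted p = 0.033). At Il2ra, the α chain of that receptor, a region upstream of the start, chr2:11637120-11637497, was lower, at 8.28 ± 2.64 CPM in control cTregs and 3.10 ± 0.19 CPM in control eTregs (log2 fold change -1.41 ± 0.40, edgeR adjusted p = 0.034). The Il2ra promoter region did not pass, at 14.1 and 15.2 CPM (log2 fold change 0.08, edgeR adjusted p = 0.918). In Atg14-deficient cells no Il2ra region was called between states. The 29 lower regions were 9 without control cTreg replicate 1, 15 without replicate 3, and 12, 17 and 11 without control eTreg replicate 1, 2 and 3, and the 4 higher ones were 0 to 2 without any 1 of these. With the mouse block they were 46 lower and 9 higher, against 5.7% and 4.67% of all tested regions. In Atg14-deficient cells 18 regions of the list were higher and 42 lower (4.64% and 10.8%, against 4.41% and 5.4% of all), and Il7r and Jak1 led with 6 lower regions each.

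The second question was whether loss of Atg14 altered these loci within a state. In neither state did any of the 72 regions pass the adjusted threshold in edgeR (0.0228% of all tested regions did in eTregs and 0.0163% in cTregs), and DESeq2 called 0, with no adjusted p for 7 of the 72 in eTregs and 10 in cTregs. At an unadjusted p below 0.05, 6 regions were higher in Atg14-deficient than control eTregs (8.33%, against 4.59% of all) and 0 were lower (against 1.77%). The 6 belonged to Stat4 (2), Cish (2), Socs3 and Stat5b. In eTregs the groups did not overlap in 4 regions, all higher in Atg14-deficient cells, against 4.97% of all tested regions that were higher without overlap and 3.51% that were lower. The median log2 fold change of the 72 was 0.22, against 0.06 over all tested regions. The scaling of libraries moved this split: higher regions made up 72.2% of all regions called at an unadjusted p, but 60.1% after TMM normalization and 63.0% with DESeq2 size factors, and the 6 regions became 4 with either.

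The smallest p was that of the Socs3 promoter region, chr11:117969061-117969545. It measured 16.9, 26.8 and 21.1 CPM in control eTregs and 28.2, 31.4, 31.2 and 51.1 CPM in Atg14-deficient eTregs. All Atg14-deficient libraries were higher, by a log2 fold change of 0.72 ± 0.22 (edgeR, unadjusted p = 0.0030, adjusted p = 0.385). Replicate 4 stood above the others, and without it the log2 fold change was 0.48, under the size required. In cTregs the same region had 26.2, 27.1 and 26.8 CPM in controls and 36.5, 22.6, 31.8 and 38.9 CPM in Atg14-deficient cells, which overlapped (0.29 ± 0.22). The summed Socs3 locus gave 65.7, 92.1 and 68.7 CPM in control eTregs and 97.4, 84.5, 109 and 126 CPM in Atg14-deficient eTregs (log2 fold change 0.47 ± 0.14, edgeR unadjusted p = 0.0024, adjusted p = 0.168), and these overlapped.

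At Cish, 2 regions downstream of the gene were higher. The region 16448 bp from a start, chr9:107312755-107313561, which is the last of the sequences above, had 24.7, 36.0 and 17.8 CPM in control eTregs and 43.8, 29.3, 43.7 and 53.2 CPM in Atg14-deficient eTregs. The groups overlapped, with a log2 fold change of 0.72 ± 0.26 (edgeR, unadjusted p = 0.012, adjusted p = 0.499). The region 9602 bp from a start, chr9:107306069-107306556, had 13.7, 14.96 and 10.8 CPM in control eTregs and 20.7, 18.4, 23.8 and 19.3 CPM in Atg14-deficient eTregs. There was no overlap, with a log2 fold change of 0.66 ± 0.28 (edgeR, unadjusted p = 0.025, adjusted p = 0.567). Both lost the unadjusted call without control eTreg replicate 3, at 0.49 and 0.52, or with the promoter share as a covariate, at 0.49 and 0.45, and the second also without Atg14-deficient eTreg replicate 3. However, neither promoter region of Cish was higher. The one upstream of the start, chr9:107295588-107296263, had 23.8, 31.2 and 16.9 CPM in control eTregs and 12.0, 25.5, 20.7 and 14.1 CPM in Atg14-deficient eTregs (-0.41 ± 0.25, edgeR unadjusted p = 0.108). Leaving out 1 library gave values between -0.63 and -0.17, and 2 alternatives called this region lower before adjustment. The other promoter region had 19.5, 20.2 and 15.5 CPM in control eTregs and 11.1, 19.2, 18.0 and 23.4 CPM in Atg14-deficient eTregs, which overlapped (-0.03 ± 0.26, edgeR unadjusted p = 0.91).

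**Figure D4:**
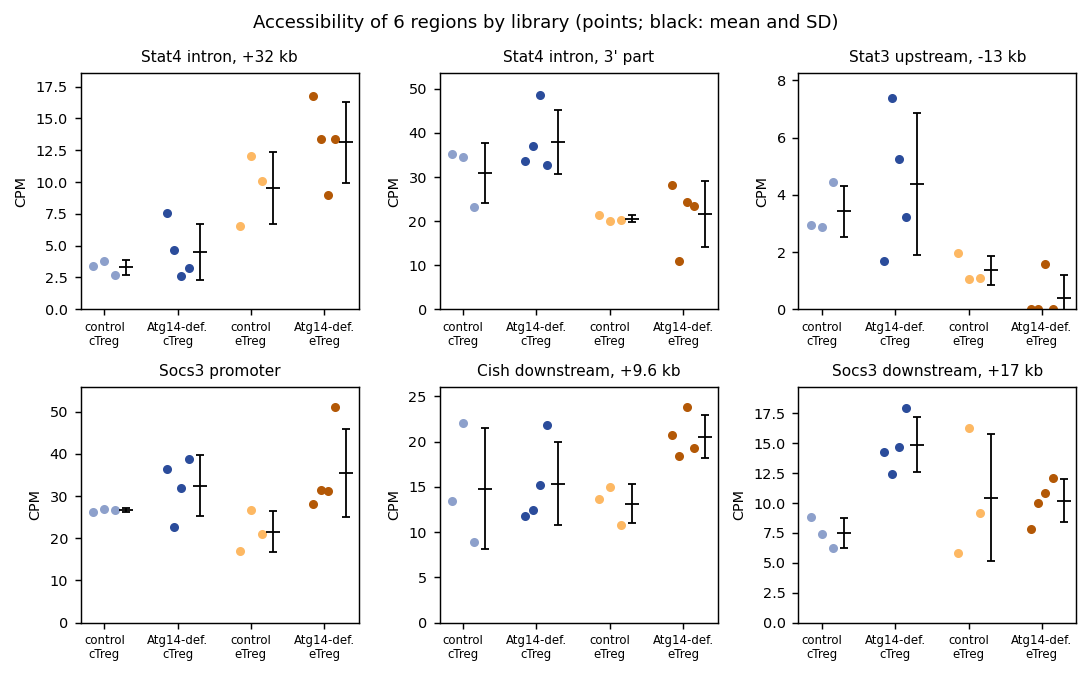
CPM of 6 regions in each library (points), with the mean and SD of each group in black. The upper row shows the regions that differed between states, and the lower row the Socs3 promoter region, the Cish region 9602 bp from a start and the Socs3 region 16815 bp from the start, where Atg14-deficient libraries lie above the controls in eTregs (left and middle) or in cTregs (right).

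Stat5b had 2 promoter regions. The one at a start within the gene, chr11:100822395-100822753, had 11.1, 11.0 and 10.3 CPM in control eTregs and 15.6, 14.2, 14.8 and 16.95 CPM in Atg14-deficient eTregs, without overlap (0.52 ± 0.25, edgeR unadjusted p = 0.046, adjusted p = 0.621). The one at the 5′ end, chr11:100850296-100850778, had 20.8, 12.6 and 7.93 CPM in control eTregs and 14.4, 7.11, 16.4 and 16.95 CPM in Atg14-deficient eTregs, which overlapped (0.04 ± 0.32, edgeR unadjusted p = 0.893). All 9 Stat5b regions had positive values in this comparison, from 0.04 to 0.52. So did 69.4% of the 72 regions and 56.2% of all tested regions. The highest Stat5b region, chr11:100823971-100824336, measured 14.3, 11.3 and 14.4 CPM in control eTregs and 19.8, 12.5, 16.9 and 14.6 CPM in Atg14-deficient eTregs, which overlapped (0.27 ± 0.25). The 2 Stat4 introns were of low level. The one 44864 bp from a start, chr1:52052967-52053247, had 1.30, 1.84 and 0.541 CPM in control eTregs and 7.19, 2.09, 2.12 and 5.65 CPM in Atg14-deficient eTregs (1.83 ± 0.81, edgeR unadjusted p = 0.032, adjusted p = 0.583). The other, 14102 bp from a start, had 1.30, 0 and 1.80 CPM in control eTregs and 3.6, 0.837, 3.71 and 3.6 CPM in Atg14-deficient eTregs (1.45 ± 0.69, edgeR unadjusted p = 0.045, adjusted p = 0.620). The latter value was 0.91 without control eTreg replicate 2 and 2.27 without replicate 3, and it lost the unadjusted call under 10 of 14 alternatives. The Stat5b region at the start within the gene lost the unadjusted call under 11 alternatives and kept it under 4, at log2 fold changes of 0.46 to 0.55. Among the 11 were the fits without any 1 control eTreg library and without Atg14-deficient eTreg replicate 1, 3 or 4. The Stat4 region 44864 bp from a start lost the call without control eTreg replicate 1 or 3 and, at 0.96, with the promoter share as a covariate. The count of 6 was 3 without control eTreg replicate 1 or Atg14-deficient eTreg replicate 4, and 2 without Atg14-deficient eTreg replicate 3; it was 4 without control eTreg replicate 3, Atg14-deficient eTreg replicate 1 or control cTreg replicate 1. With the promoter share of each library as a covariate it was also 3, where 4.29% of all tested regions were higher.

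In cTregs, 2 regions were higher in Atg14-deficient cells at an unadjusted p below 0.05 (2.78%, against 1.99% of all tested regions) and 0 were lower (against 1.35%). The Stat4 intron at chr1:52011250-52011604, 3184 bp from a start, had 7.33, 11.0 and 8.03 CPM in control cTregs and 33.6, 9.34, 15.3 and 19.9 CPM in Atg14-deficient cTregs. The groups overlapped, and replicate 1 was the highest of the Atg14-deficient libraries (1.13 ± 0.34, edgeR unadjusted p = 0.0027, adjusted p = 1). A Socs3 region 16815 bp from the start, chr11:117952196-117952547, had 8.80, 7.42 and 6.24 CPM in control cTregs and 14.3, 12.5, 14.7 and 18.0 CPM in Atg14-deficient cTregs, without overlap (0.97 ± 0.32, edgeR unadjusted p = 0.0051, adjusted p = 1). In eTregs that region had 5.86, 16.3 and 9.19 CPM in controls and 7.79, 10.0, 10.9 and 12.1 CPM in Atg14-deficient cells (-0.04 ± 0.31). Without control cTreg replicate 2 the count in cTregs was 7.

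**Figure D5:**
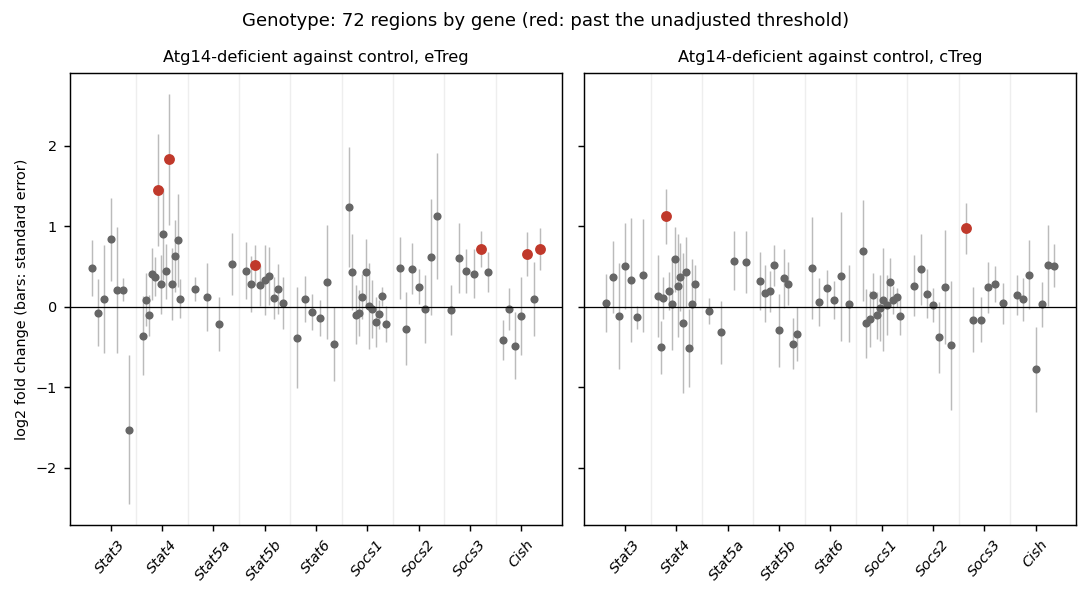
Log2 fold change of Atg14-deficient against control cells for the 72 tested regions, grouped by gene, in eTregs (left) and cTregs (right). Bars are the standard error, and red points pass 0.05 before adjustment and 0.5 in size: 6 on the left and 2 on the right, all above 0, with 0 past the adjusted threshold in either panel.

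The difference of the genotype effects between eTregs and cTregs was tested directly. It passed the adjusted threshold in 0 of the 72 regions (edgeR; 0% of all tested regions did, and DESeq2 called 0 of the 72), and at an unadjusted p below 0.05 in 1 (1.39%, against 3.05% of all). This was the Socs3 region 16815 bp from the start, with a difference of -1.01 ± 0.44 on the log2 scale (edgeR, unadjusted p = 0.031). The 2 state comparisons and the 2 genotype comparisons share libraries, so their values are given side by side and are not independent. For the summed loci in eTregs, the 95% interval of the genotype effect was -0.17 to 0.21 for Socs1 and -0.35 to 0.23 for Stat6. It lay above 0 for Socs3 (0.18 to 0.76), Socs2 (0.05 to 0.57) and Stat5b (0.04 to 0.50), none of which passed the threshold in edgeR (adjusted p = 0.168, 0.321 and 0.330).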

How the data were processed

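Splenic cTregs and eTregs of control and Atg14-deficient donors in mixed BM chimeras were profiled by bulk ATAC-seq (14 libraries). The deposited values are raw counts of nucleosome-free reads in merged peak regions, without normalization. The submitters' processing notes name cutadapt 1.9, Picard 1.65, SAMtools, MACS2 2.1.0.20150603 and bedtools, with GRCm38 as the build, whereas the study's methods name mm9. Contig names and the position of a region within 200 bp of a start of all 9 genes matched GRCm38, which was used. Starts were counted from 0 in the table and are printed counted from 1. Even numbers made up 74.7 to 87.0% of a library's values.

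Regions were annotated with GENCODE release M21 (basic set). The tests used edgeR 4.0.16 under R 4.3.3 (quasi-likelihood test, robust, library totals as scaling, regions kept by filterByExpr, 1 coefficient per group over all 14 libraries) and DESeq2 1.42.0 as an alternative, with Benjamini-Hochberg adjustment over 61366 regions. A call required 0.05 for p and 0.5 for the size of the log2 change. The biological coefficient of variation was 25.6%, and tested regions of the 9 genes had a median mean count of 31.4 per library. Sequences came from GRCm38 of RefSeq, read with pysam 0.24.0 under Python 3.11.15. The fits were tested on simulated counts.

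Named regions were the promoter region and the region of highest mean CPM of each gene, up to 2 regions called in control eTregs against control cTregs, and up to 5 with the smallest unadjusted p in each genotype comparison. The genes, lists and rules were chosen with earlier results of these data known. Same-numbered cTreg and eTreg libraries of Atg14-deficient cells correlated in their deviations from group means (r = 0.117 to 0.239 over regions), and those of control cells by 0.053 to 0.206. Among the eTreg libraries of its genotype, every cTreg library correlated best with that of its own number. The best partner of each eTreg library was not looked up. The methods give the same number of chimeras for both states as there are libraries, and the library number was taken as the mouse in a blocked fit, printed beside results whose calls it changed. 1 cTreg marker gene is not reported here.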

Additional observations from a re-analysis of the deposited data

Results flagged for a closer look

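In groups of 4 libraries, the highest or lowest value was set against Dixon's 95% critical value for its gap to the nearest other value. Of 42 such groups 3 exceeded it, and chance gives about 1 in 20 groups. At the Socs3 promoter region, Atg14-deficient eTreg replicate 4 had 51.1 CPM, where the other 3 libraries had 28.2 to 31.4 CPM. At the Stat4 intron 14102 bp from a start, Atg14-deficient eTreg replicate 2 had 0.837 CPM, below the 3.6 to 3.71 CPM of the others. At the Stat3 region 12946 bp upstream of a start, Atg14-deficient eTreg replicate 3 had 1.59 CPM, while the others were at 0. With the others tied at 0, any nonzero value would have been flagged there. This group therefore cannot be set against the chance rate. The library that stood apart was a different one in each of the 3 regions.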

How the results depend on the processing

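Fold changes were followed for 33 combinations of named region and comparison over 491 alternative values: 446 kept their side of the threshold or moved by less than their standard error, 36 lost a call, 3 gained one, and 6 moved by more than their standard error. No called value changed sign, and 16 values of uncalled regions did. The 2 genotype comparisons and their difference had 0 adjusted calls among the 72 regions under every alternative run. With at least 10 counts in every library (39 regions left) there were 0 higher in control eTregs, and 0 higher and 1 lower in Atg14-deficient eTregs, against cTregs, and 17 lower pathway regions. A log2 fold change beyond 1 left 1 lower region in Atg14-deficient eTregs, 2 and 1 higher in Atg14-deficient eTregs and cTregs by genotype, and 2 higher pathway regions. Fits of only the groups compared gave 1 lower by state in Atg14-deficient cells and 3 higher by genotype in eTregs, and the nearest-start rule alone gave 1 lower by state in Atg14-deficient cells. With DESeq2 there was 1 lower region in control eTregs and 7 higher pathway regions, and with 1 start per gene 1 lower in control eTregs.

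A replicate block by number gave 2 lower regions in control eTregs and 2 higher in Atg14-deficient eTregs by state. A replicate block by genotype and number gave 2 higher and 4 lower in control eTregs, 2 higher and 5 lower in Atg14-deficient eTregs, and 9 higher and 46 lower pathway regions in control eTregs. The blocks changed no other count beyond 1.5 times. The promoter share as covariate, chosen after seeing the data, gave 3 higher and 4 lower in control eTregs, 9 higher in Atg14-deficient eTregs by state, 3 higher and 1 lower by genotype in eTregs, 1 lower by genotype in cTregs, and 13 higher pathway regions. The cause was not tested. No block by genotype and number could be fitted for the genotype comparisons.

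Leaving out each library in turn gave 0 to 2 higher and 0 to 1 lower regions in control eTregs and 1 to 2 higher and 1 to 3 lower in Atg14-deficient eTregs by state. By genotype it gave 2 to 7 higher and 0 to 1 lower in eTregs and 2 to 7 higher and 0 to 1 lower in cTregs. For the pathway in control eTregs it gave 0 to 6 higher and 9 to 30 lower. Across TMM and DESeq2 scaling the median log2 fold change of the 72 regions in eTregs by genotype was 0.17 and 0.18.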
